A study of Homo sapiens with 16 samples.

Results

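The genes described here make cholesterol and fatty acids, or control that synthesis, and are known targets or regulators of the sterol regulatory element-binding proteins (SREBPs). They were taken from a list of 32 symbols. Of these, 31 were found among the 31496 genes to which the deposited transcripts could be assigned, and all 31 passed the filter on low counts that left 19836 genes for testing. They comprise 18 sterol synthesis genes, 5 regulators and transport genes (INSIG1, STARD4, SREBF1, SREBF2 and SCAP) and 8 of the 9 listed fatty acid genes. No transcript was matched to ACACA, which is not analysed here.

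The series sequenced polyadenylated RNA of HCT116 cells, a line derived from a human colon cancer, in which the long noncoding RNA NORAD was or was not depleted. Depletion used CRISPR interference, where Cas9 without nuclease activity blocks transcription at a promoter, and doxycycline at 0.5 µg/ml. The knockdown libraries number 2 at 24 h, 3 at 48 h and 3 at 96 h, and wild-type libraries of the same cell line were made in the same numbers at the same times. The labels do not say whether the wild-type cells also received doxycycline or carried the repressor, or whether replicates were grown apart. The p-values therefore rest on the spread among these libraries alone, and that spread may be technical.

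SREBPs are made as membrane proteins of the endoplasmic reticulum. SCAP, their escort and sterol sensor, carries them to the Golgi when membrane cholesterol is low, where proteases release the part that enters the nucleus and binds sterol regulatory elements, often beside sites for NF-Y and Sp1. INSIG1 holds SCAP back when sterols are plentiful, and its gene is itself an SREBP target, which closes a feedback loop. SREBF2 encodes SREBP-2, which mainly drives cholesterol synthesis, and SREBF1 encodes the SREBP-1 proteins, which mainly drive fatty acid synthesis.

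Of the promoters below, those of INSIG1, MSMO1, MVD and HMGCS1 belong to the members with the lowest p-values in the difference between wild-type cells at 48 h and 24 h, and TM7SF2 is shown because it alone among the sterol synthesis genes was higher in knockdown libraries at each time. The sequences are RefSeq promoters on GRCh38.p14, from 250 bases before to 50 after the listed start. Capitals mark the core of the sterol regulatory element (TCACNCC) and the NF-Y box (CCAAT) on either strand. The windows are chr7:155297628-155297927 (plus strand) for INSIG1, chr4:165327419-165327718 (plus strand) for MSMO1, chr16:88663042-88663341 (minus strand) for MVD, chr5:43313363-43313662 (minus strand) for HMGCS1 and chr11:65111622-65111921 (plus strand) for TM7SF2. The start of the transcript with the largest share of each gene's counts lay 102, 46, 19, 100 and 18 bases upstream of the listed start.
INSIG1: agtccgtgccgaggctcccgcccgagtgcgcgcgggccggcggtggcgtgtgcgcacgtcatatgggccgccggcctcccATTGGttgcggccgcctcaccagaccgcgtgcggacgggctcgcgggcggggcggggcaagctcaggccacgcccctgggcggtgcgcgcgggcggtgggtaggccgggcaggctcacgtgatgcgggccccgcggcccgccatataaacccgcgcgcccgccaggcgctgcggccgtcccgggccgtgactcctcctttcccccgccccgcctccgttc
MSMO1: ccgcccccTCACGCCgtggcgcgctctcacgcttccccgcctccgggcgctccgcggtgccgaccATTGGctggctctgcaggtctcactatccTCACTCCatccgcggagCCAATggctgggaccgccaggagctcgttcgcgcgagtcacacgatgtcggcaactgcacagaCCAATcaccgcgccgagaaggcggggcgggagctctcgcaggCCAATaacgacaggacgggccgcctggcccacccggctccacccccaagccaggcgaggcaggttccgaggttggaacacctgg
MVD: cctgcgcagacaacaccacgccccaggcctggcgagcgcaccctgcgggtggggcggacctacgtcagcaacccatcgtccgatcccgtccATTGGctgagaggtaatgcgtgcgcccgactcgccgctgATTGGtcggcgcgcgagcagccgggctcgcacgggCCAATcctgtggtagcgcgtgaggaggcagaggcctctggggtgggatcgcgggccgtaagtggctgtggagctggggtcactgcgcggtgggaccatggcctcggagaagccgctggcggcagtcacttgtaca
HMGCS1: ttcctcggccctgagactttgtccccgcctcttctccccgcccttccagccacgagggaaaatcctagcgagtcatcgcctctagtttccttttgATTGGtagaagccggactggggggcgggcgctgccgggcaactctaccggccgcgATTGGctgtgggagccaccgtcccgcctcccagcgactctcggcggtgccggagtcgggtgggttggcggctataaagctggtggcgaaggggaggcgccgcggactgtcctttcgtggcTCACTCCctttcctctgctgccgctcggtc
TM7SF2: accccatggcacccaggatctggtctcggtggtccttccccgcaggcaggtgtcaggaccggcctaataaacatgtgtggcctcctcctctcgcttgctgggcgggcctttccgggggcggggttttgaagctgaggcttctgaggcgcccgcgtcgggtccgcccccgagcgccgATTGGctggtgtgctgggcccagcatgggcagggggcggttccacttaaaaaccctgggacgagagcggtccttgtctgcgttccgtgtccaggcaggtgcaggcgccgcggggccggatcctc

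The promoters of 27 of the 31 genes were searched. TCACNCC was present in 8 of these 27 (29.6%), against 15.5% of all 35116 listed promoters. CCAAT was present in 19 (70.4%), against 34.6% of all promoters, with up to 5 matches in 1 member. The Sp1 box GGGCGG was present in 25 (92.6%, against 45% of all) and the E-box CACGTG in 4 (14.8%, against 7.26%). MSMO1 held 2 copies of TCACNCC and 4 of CCAAT, MVD 3 of CCAAT, HMGCS1 1 and 2, and TM7SF2 and INSIG1 1 CCAAT each. These counts describe letters in a 300-base window and are not evidence of binding.

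NORAD, the target, was measured at 21.8, 18.1 and 24.8 CPM (counts scaled to library size by TMM) in knockdown libraries at 48 h, against 156, 155 and 162 CPM in wild type. At 96 h it was at 79.9, 72.7 and 66.1 CPM in knockdown and 181, 184 and 183 CPM in wild type. At 24 h it was at 229.7 and 188 CPM in the libraries labelled knockdown and 179 and 201 CPM in wild type, so it was not lower there (log2 fold change 0.14, SE 0.117, edgeR adjusted p = 0.523), and every direction given for 24 h is that of the labels. Totals ranged from 28391784 to 51853876 estimated counts a library. Of the colon epithelial markers, EPCAM lay between 193 and 313 CPM and KRT8 between 1587 and 2861 CPM over all libraries, while VIL1 and LGR5 were at or near 0 (at most 0.668 and 0.0963 CPM). Of 13 measured markers of other cells, PTPRC, CD3E, CD14, COL3A1 and ALB stayed under 1 CPM, and CD68 (8.69 to 52.1 CPM) and COL1A1 (33.6 to 79.5 CPM) gave most of the summed level. Knockdown replicate 3 of 48 h stood apart from its 2 partners in many of the genes below, and the 48 h count of members is given without it too.

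Per length, the fatty acid genes FASN and SCD were the highest of the 31 in wild-type cells at 24 h. Their levels were 1004 ± 111 and 709 ± 13.3 TPM (level per length, from annotated transcript lengths; mean ± SD, n = 2). MVD, the mevalonate diphosphate decarboxylase gene, followed at 653 ± 41.2 TPM, then FDPS (492 ± 17.8 TPM) and FDFT1 (364 ± 2.89 TPM). INSIG1 was at 235 ± 6.9 TPM and SREBF1 at 237 ± 18.1 TPM. FADS2 was the lowest at 10.9 ± 0.431 TPM.

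In the libraries labelled knockdown at 24 h most genes of the mevalonate and sterol pathway were lower than in wild type. Of the 31 members 21 passed the test (adjusted p under 0.05 over all tested genes), against 17.6% of all tested genes, with 2 higher and 19 lower where 5.14% and 12.4% of all tested genes were. Among the 18 sterol synthesis genes 15 were lower, TM7SF2 was higher and PMVK and LSS did not pass. Their median log2 fold change was -0.65, against -0.020 over all tested genes. Of all 31 members 26 had every value in libraries labelled knockdown below every wild-type value, where 32.9% of all tested genes did, and 2 had the reverse, where 26.8% did. The summed level of the 18 genes was 2228 to 2424 CPM in libraries labelled knockdown and 3465 to 3609.7 CPM in wild type. The plot of log2 fold changes shows all 31 genes at the 3 times.

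**Figure D1:**
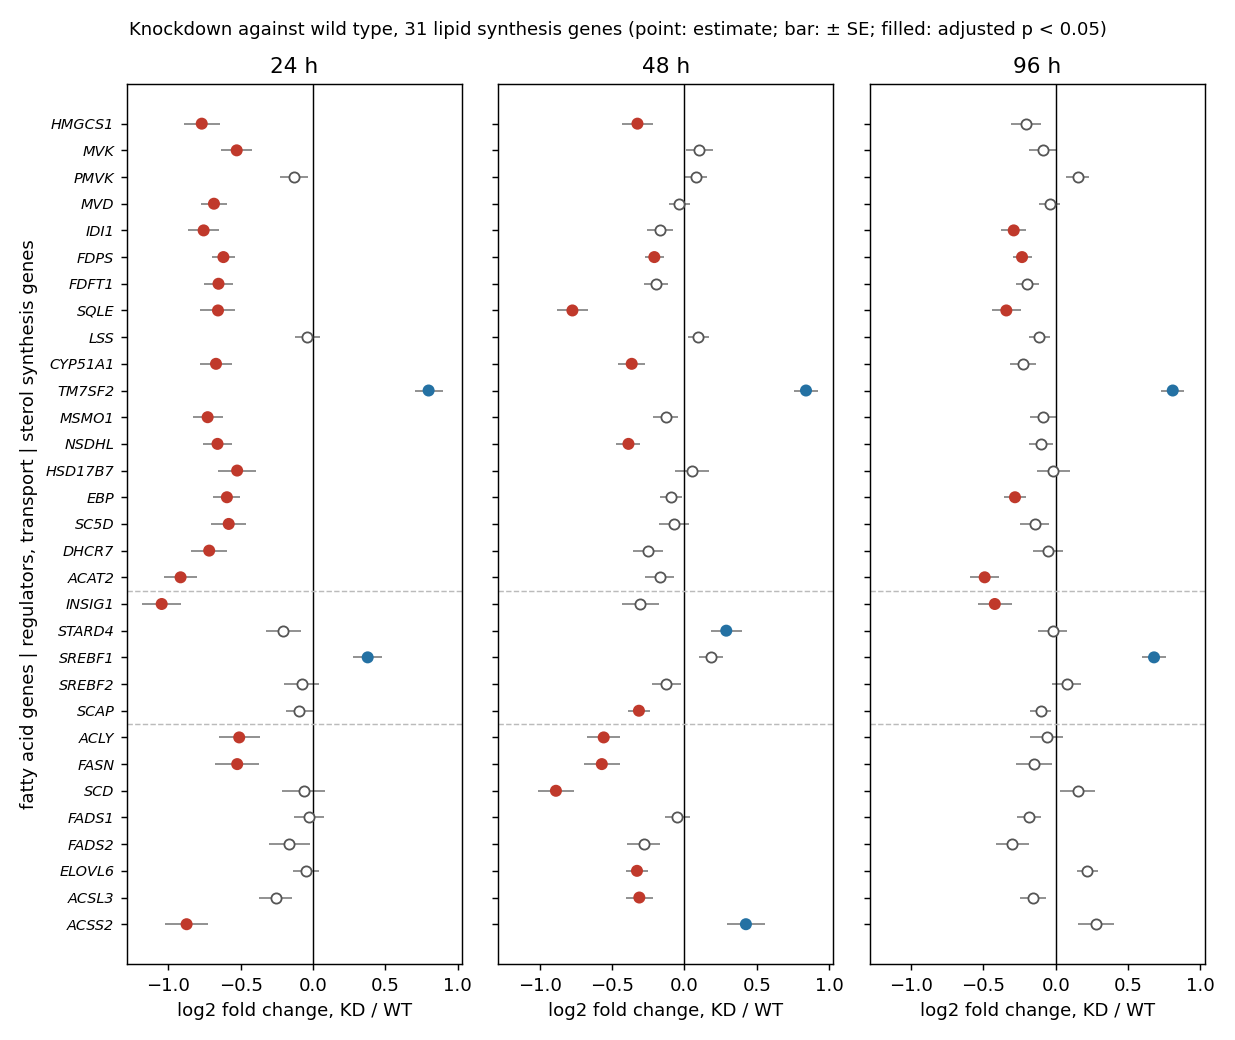
Log2 fold change of knockdown over wild type (x axis) for each of 31 genes (y axis, grouped by role) at 24 h, 48 h and 96 h; points are edgeR estimates, bars ± SE, and filled points passed an adjusted p of 0.05 (red lower, blue higher in knockdown). At 24 h 19 points are filled on the lower side and 2 on the higher, at 48 h 11 and 3, and at 96 h 6 and 2.

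Along the pathway, ACAT2, the cytosolic acetoacetyl-CoA thiolase of its first step (ENSG00000120437, chr6:159760328-159779055, plus strand), had 35.9 and 34.7 CPM in libraries labelled knockdown and 65.6 and 67.4 CPM in wild type at 24 h (log2 fold change -0.91, SE 0.115, edgeR adjusted p = 1.95e-05). Both libraries labelled knockdown were close to 53.1% of wild type and the groups did not overlap. ACAT2 overlaps TCP1 on the opposite strand. TCP1, a chaperonin gene, was lower too (log2 fold change -0.68, SE 0.109, edgeR adjusted p = 0.000217). At 48 h mean TCP1 was 310 CPM in knockdown and 484 CPM in wild type. ACAT2 did not pass at 48 h, with means of 15.9 and 17.9 CPM and overlapping groups. The libraries were strand-specific per the labels, but whether counting used strand is not given in the sources used here, so the values of overlapping genes are uncertain.

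HMGCS1, which makes HMG-CoA, was lower, at a log2 fold change of -0.77 (SE 0.125, edgeR adjusted p = 0.000297), and the mevalonate kinase gene MVK was at -0.53 (SE 0.107). MVD (ENSG00000167508, chr16:88651935-88663161, minus strand) had 353 and 347 CPM in libraries labelled knockdown and 599 and 525 CPM in wild type (log2 fold change -0.68, SE 0.0872, edgeR adjusted p = 2.29e-05). IDI1, the isopentenyl diphosphate isomerase gene (ENSG00000067064, chr10:1039152-1049170, minus strand), had 106 and 94.1 CPM in libraries labelled knockdown, against 163 and 175 CPM in wild type (log2 fold change -0.76, SE 0.105, edgeR adjusted p = 5.57e-05). All values of MVD and IDI1 in libraries labelled knockdown lay below all wild-type values. FDPS, which makes farnesyl diphosphate (ENSG00000160752, chr1:155308748-155320666, plus strand), had 257 and 249 CPM in libraries labelled knockdown, against 399.8 and 376 CPM in wild type (log2 fold change -0.62, SE 0.0802, edgeR adjusted p = 2.6e-05), again with no overlap. FDPS and HSD17B7 have near-identical pseudogene copies that could share their reads.

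Beyond farnesyl diphosphate, 9 of the sterol genes were lower at 24 h, LSS did not pass and TM7SF2, described further on, was higher. The log2 fold changes at 24 h were -0.65 for squalene synthase (FDFT1), -0.66 for squalene epoxidase (SQLE), -0.67 for lanosterol demethylase (CYP51A1) and -0.73 for the C4 methyl oxidase MSMO1. They were -0.66 for NSDHL, -0.52 for HSD17B7, -0.59 for the sterol isomerase EBP, -0.58 for the desaturase SC5D and -0.72 for DHCR7, which makes cholesterol from its last precursor on one branch. LSS, lanosterol synthase, between SQLE and CYP51A1 in the pathway, had 160.3 and 164 CPM in libraries labelled knockdown and 168 and 165 CPM in wild type (log2 fold change -0.039, SE 0.0858, edgeR adjusted p = 0.844). PMVK, phosphomevalonate kinase, was at -0.13 (SE 0.0967, edgeR adjusted p = 0.426). Without knockdown replicate 2 of 24 h, SC5D (edgeR adjusted p = 0.102) and HSD17B7 (0.169) did not pass, nor did HSD17B7 without wild-type replicate 2 of 24 h (0.134) or under total-count scaling (0.107).

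INSIG1 (ENSG00000186480, chr7:155297776-155310235, plus strand) showed the lowest log2 fold change of the 31 genes at 24 h. It had 199 and 144 CPM in libraries labelled knockdown, against 359 and 348 CPM in wild type, which is 48.5% of wild type (log2 fold change -1.05, SE 0.135, edgeR adjusted p = 4.42e-05). The 2 libraries labelled knockdown differed from each other by more than the 2 wild-type libraries did, and both were below them. SREBF1 (ENSG00000072310, chr17:17810399-17837002, minus strand) was higher, with 552 and 511 CPM in libraries labelled knockdown, against 434 and 383 CPM in wild type (log2 fold change 0.38, SE 0.099, edgeR adjusted p = 0.01). That call ended without knockdown replicate 1 of 24 h (edgeR adjusted p = 0.112) or wild-type replicate 2 of 24 h (0.174).

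The other regulators did not pass at 24 h. SREBF2 had 442 and 383 CPM in libraries labelled knockdown and 440.0 and 431 CPM in wild type (edgeR adjusted p = 0.761), with overlapping groups. SCAP had 66.2 and 69.1 CPM in libraries labelled knockdown and 71.1 and 73.3 CPM in wild type (edgeR adjusted p = 0.582), with no overlap. STARD4, a cytosolic sterol carrier, was at -0.20 (SE 0.122, edgeR adjusted p = 0.302).

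Of the 8 fatty acid genes 3 were lower at 24 h and 5 did not pass. ACSS2, which makes acetyl-CoA from acetate (ENSG00000131069, chr20:34872146-34927962, plus strand), had 115 and 102 CPM in libraries labelled knockdown and 209 and 188 CPM in wild type (log2 fold change -0.87, SE 0.15, edgeR adjusted p = 0.000696). ACLY, which makes acetyl-CoA from citrate, and FASN, fatty acid synthase, were at -0.51 and -0.52 (edgeR adjusted p = 0.0177 and 0.0244). ACLY did not pass without knockdown replicate 2 (0.285), wild-type replicate 1 (0.054) or wild-type replicate 2 (0.137) of 24 h, nor FASN without knockdown replicate 2 (0.342) or wild-type replicate 1 (0.202) of 24 h or wild-type replicate 2 of 48 h (0.0525). Under total-count and abundance-dependent scaling neither ACLY (0.125 and 0.139) nor FASN (0.17 and 0.683) passed, and FASN did not under upper-quartile scaling either (0.0514). The desaturase and elongase genes SCD, FADS1, FADS2 and ELOVL6 had log2 fold changes between -0.16 and -0.029, none past the test.

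The genes of related pathways were counted from lists, to be read beside 5.14% higher and 12.4% lower over all tested genes at 24 h. Of 7 other tested sterol synthesis genes 3 were lower at 24 h, among them TMEM97, an endoplasmic reticulum protein gene (log2 fold change -0.80), and ERG28, a scaffold of sterol enzymes (-0.41), and 4 did not pass. Of 12 lipoprotein uptake and sterol transport genes 1 was lower, and of 10 SREBP processing and sterol sensing genes 0 passed by edgeR or DESeq2 and 2 had an unadjusted p under 0.05. Of 22 other fatty acid and glycerolipid genes 4 were higher, with the triglyceride synthesis genes DGAT2 at 0.78 and DGAT1 at 0.35, and 3 were lower. In the isoprenoid branches 2 of 10 were lower, PDSS1 of ubiquinone tail synthesis at -0.78 and NUS1 of dolichol synthesis at -0.46. Of 11 genes of sterol export and LXR, the oxysterol receptor, 2 were higher, ABCG1 at 1.38 and MYLIP at 0.47, and of 11 fatty acid oxidation genes 2 were lower, CPT1A at -0.40 and HADHA at -0.37.

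At 24 h other measures differed with the labels. The share of counts on retained-intron transcripts was 5.58% and 6.04% in libraries labelled knockdown, against 5.17% and 4.93% in wild type. Genes of the mitochondrial genome took 6.08% and 6.10% of counts in libraries labelled knockdown, against 4.89% and 5.05% in wild type. The summed colon epithelial markers were 6061 to 6631 CPM in libraries labelled knockdown and 7256 to 7706 CPM in wild type, with 2 of 7 tested markers lower, where 12.4% of all tested genes were. The part of these measures in the lower sterol genes was not tested.

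At 48 h, when NORAD was at 13.6% of wild type, 5 of the 18 sterol synthesis genes and 5 of the 8 fatty acid genes were lower. Of the 31 members 14 passed, 3 higher and 11 lower, where 33.2% of all tested genes passed, 14.8% higher and 18.5% lower. The sterol synthesis genes gave 5 lower (HMGCS1, FDPS, SQLE, CYP51A1 and NSDHL), 1 higher (TM7SF2) and 12 that did not pass. With 6 of 18 called, they passed about as often as all tested genes (33.2%), and the calls of HMGCS1 and FDPS depended on the setting, as given below. The median log2 fold change of the 18 was -0.15, against 0.063 over all tested genes. Of the 8 fatty acid genes 6 passed, a larger share than that of all tested genes, with 5 lower and ACSS2 higher. Knockdown and wild-type values did not overlap for 12 lower and 3 higher members, where 20.3% and 16.9% of all tested genes were so placed. The division depended on the scaling, with 7 higher and 7 lower under total-count, 5 and 9 under upper-quartile and 5 and 7 under abundance-dependent scaling. Without knockdown replicate 3 of 48 h it was 1 higher and 17 lower.

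SCD, the stearoyl-CoA desaturase gene (ENSG00000099194, chr10:100347124-100364834, plus strand), had 158, 143 and 223 CPM in knockdown libraries at 48 h and 325, 324 and 321 CPM in wild type (log2 fold change -0.89, SE 0.123, edgeR adjusted p = 3.25e-05). Knockdown replicate 3 lay between its partners and the wild-type libraries, and the groups did not overlap. SQLE, on the sterol side, had 11.3, 11.3 and 15.5 CPM in knockdown libraries and 21.1, 21.6 and 22.3 CPM in wild type (log2 fold change -0.77, SE 0.107, edgeR adjusted p = 1.38e-05), again with knockdown replicate 3 the nearest to wild type. ACLY (ENSG00000131473, chr17:41866908-41930542, minus strand) had 178, 151 and 242 CPM in knockdown libraries and 288, 283 and 268 CPM in wild type (log2 fold change -0.56, SE 0.116, edgeR adjusted p = 0.00128). Its groups did not overlap, and knockdown replicate 3 was again the nearest to wild type.

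NSDHL, which removes a C4 carboxyl group from sterol precursors (ENSG00000147383, chrX:152830967-152869729, plus strand), had 20.9, 23.3 and 24.4 CPM in knockdown libraries at 48 h, against 31.4, 29.4 and 28.8 CPM in wild type (log2 fold change -0.39, SE 0.0832, edgeR adjusted p = 0.00124). ELOVL6, which lengthens palmitate (ENSG00000170522, chr4:110045846-110199199, minus strand), had 46.3, 46.5 and 51.4 CPM in knockdown libraries and 61.0, 57.2 and 62.6 CPM in wild type (log2 fold change -0.33, SE 0.0741, edgeR adjusted p = 0.00186). Neither gene had overlapping groups. FASN was at -0.57 (edgeR adjusted p = 0.00207, and 0.075 under abundance-dependent scaling) and the acyl-CoA synthetase gene ACSL3 at -0.31 (edgeR adjusted p = 0.0132).

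SCAP (ENSG00000114650, chr3:47413694-47477126, minus strand) was lower at 48 h, with 71.4, 71.1 and 83.6 CPM in knockdown libraries and 93.8, 99.1 and 88.1 CPM in wild type (log2 fold change -0.31, SE 0.074, edgeR adjusted p = 0.00258; 0.0519 under total-count scaling). Its groups did not overlap. INSIG1 had 8.74, 7.97 and 11.6 CPM in knockdown libraries and 12.2, 11.3 and 11.2 CPM in wild type and did not pass (log2 fold change -0.30, SE 0.128, edgeR adjusted p = 0.0751), but passed without knockdown replicate 3 of 48 h (edgeR adjusted p = 0.00311) and without knockdown replicates 1 and 2 of 24 h in turn (0.0355 and 0.0389), and by DESeq2 (0.0463). SREBF2 had 82.5, 75.7 and 109 CPM in knockdown libraries and 96.4, 100.3 and 94.2 CPM in wild type (edgeR adjusted p = 0.348; 0.00252 without knockdown replicate 3 of 48 h), and SREBF1 had 183, 159.9 and 197 CPM in knockdown libraries and 159, 167 and 150.0 CPM in wild type (edgeR adjusted p = 0.0886; 0.0162 without knockdown replicate 2 of 48 h, and 0.00289 by total-count, 0.00391 by upper-quartile and 0.000155 by abundance-dependent scaling). Both of these overlapped between the groups.

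Several 48 h calls ended without a single library. These were HMGCS1 (edgeR adjusted p = 0.0735 and 0.14 without knockdown replicates 1 and 2, 0.0909 and 0.0618 without wild-type replicates 1 and 3), FDPS (0.0872 without knockdown replicate 1, 0.0694 without wild-type replicate 2), ACSL3 (0.0777 and 0.051 without knockdown replicates 1 and 2, 0.0546 without wild-type replicate 1) and ACSS2 (0.0586 and 0.068 without knockdown replicates 2 and 3, 0.074 without wild-type replicate 3), all of 48 h. Under total-count and abundance-dependent scaling HMGCS1 (0.17 and 0.143), FDPS (0.336 and 0.874) and ACSL3 (0.116 and 0.148) did not pass either, nor HMGCS1 (0.0843) and FDPS (0.256) under upper-quartile scaling or HMGCS1 (0.0873), FDPS (0.113) and ACSS2 (0.0507) on the libraries of 48 h alone. STARD4, higher at 0.29 (edgeR adjusted p = 0.0455), did not pass without knockdown replicate 1 (0.0766) or 3 (0.139) or wild-type replicate 1 (0.172) or 2 (0.0965) of 48 h, wild-type replicate 1 (0.0586) or 2 (0.0587) of 24 h, knockdown replicate 2 of 96 h (0.0568) or wild-type replicate 1 of 96 h (0.0554). It was also lost under RLE scaling (0.0527), by DESeq2 (0.0533), with replicate number as a block (0.0654), with no low-count filter (0.0782) and on the libraries of 48 h alone (0.0694).

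Among related genes at 48 h, several list counts lay near the shares of all tested genes, 14.8% higher and 18.5% lower. Of 7 other sterol synthesis genes 4 were lower, with TMEM97 at -0.74 and GGPS1, geranylgeranyl diphosphate synthase, at -0.44, and 1 was higher. Of 12 uptake and transport genes 2 were lower, SCARB1, a lipoprotein receptor gene, at -0.72. Of 10 SREBP processing genes UBXN4 was higher (0.27) and ERLIN1 lower (-0.44). Of 22 other fatty acid and glycerolipid genes 4 were higher and 5 lower. LPIN1, a phosphatidate phosphatase gene, was among the higher (0.65). The lower ones included the acyl-CoA synthetase gene ACSL5 (-0.54) and GPAM, of the first step of glycerolipid synthesis (-0.65). Isoprenoid branch genes were lower in 4 of 10 cases, with PDSS1 at -0.78. Export and LXR genes gave 2 higher, ABCG1 at 0.99, and 2 lower of 11, and fatty acid oxidation 1 higher and 3 lower of 11, CPT1A at -0.48.

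At 48 h the summed markers differed too. The summed colon epithelial markers were 4056 to 4892 CPM in knockdown libraries and 6554 to 6855 CPM in wild type, with 5 of 7 tested markers lower, where 18.5% of all tested genes were. The summed markers of other cells were 78.1 to 98.0 CPM in knockdown libraries and 45.8 to 49.3 CPM in wild type. Of 10 tested markers 3 were higher, where 14.8% of all tested genes were. COL1A1 (1.07), with means of 71.0 CPM in knockdown and 33.9 CPM in wild type, gave most of the sum. ADIPOQ (0.93 and 0.29 CPM) and PLIN1 (0.53 and 0.24 CPM) were near 0. Retained-intron transcripts held 5.73%, 5.29% and 4.18% of counts in knockdown replicates 1 to 3 and between 4.05% and 4.26% in wild type. Mitochondrially encoded genes took 12.3% to 13.8% of counts in knockdown libraries and 10.4% to 11.1% in wild type. At 96 h the summed colon epithelial markers were higher in knockdown libraries, at 5361 to 5650 CPM against 4542 to 4993 CPM in wild type. Of 7 tested markers 1 was higher then, KRT19 (0.29), where 5.35% of all tested genes were. The markers of other cells summed to 73.0 to 81.1 CPM in knockdown and 58.3 to 68.3 CPM in wild type at 96 h. Of 10 tested, CD68 (0.87) was higher. The part of these measures in the lipid gene results was not tested. In bulk RNA, a change in the share of cells of a type and a change in RNA per cell cannot be told apart.

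At 96 h, when NORAD was at 39.9% of wild type, 8 of the 31 genes passed, 2 higher and 6 lower, against 10.5% of all tested genes, 5.35% higher and 5.15% lower. The lower genes were IDI1, FDPS, SQLE, EBP, ACAT2 and INSIG1. TM7SF2 and SREBF1 were higher. Knockdown and wild-type values did not overlap for 10 lower and 4 higher members, where 15.6% and 16.2% of all tested genes were so placed. None of the 8 tested fatty acid genes passed by edgeR, 4 had an unadjusted p under 0.05 and 1, ELOVL6, passed by DESeq2. Their log2 fold changes lay between -0.30 for FADS2 and 0.28 for ACSS2. The median of the sterol synthesis genes was -0.13, against -0.0084 over all tested genes.

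SREBF1 had 458, 477 and 480.2 CPM in knockdown libraries at 96 h, against 311, 274 and 299 CPM in wild type (log2 fold change 0.68, SE 0.081, edgeR adjusted p = 9.06e-06). Every knockdown value was above every wild-type value. SREBF2 had 304, 301 and 308 CPM in knockdown libraries and 306, 268 and 293 CPM in wild type, with overlap (edgeR adjusted p = 0.757), and SCAP 76.9, 82.1 and 84.1 CPM in knockdown libraries and 89.8, 84.0 and 87.6 CPM in wild type (edgeR adjusted p = 0.473), with overlap.

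INSIG1 had 22.6, 22.6 and 22.0 CPM in knockdown libraries at 96 h and 30.5, 31.7 and 27.8 CPM in wild type (log2 fold change -0.42, SE 0.115, edgeR adjusted p = 0.0229). ACAT2 had 11.2, 9.89 and 10.7 CPM in knockdown libraries and 16.7, 12.9 and 15.1 CPM in wild type (log2 fold change -0.49, SE 0.0995, edgeR adjusted p = 0.00213), beside a TCP1 log2 fold change of -0.53. EBP (ENSG00000147155, chrX:48521158-48528716, plus strand) had 41.4, 47.1 and 46.9 CPM in knockdown libraries and 57.2, 52.6 and 54.9 CPM in wild type (log2 fold change -0.28, SE 0.0775, edgeR adjusted p = 0.0208). None of the 3 had overlapping groups. FDPS had 97.7, 105 and 98.5 CPM in knockdown libraries and 122, 116 and 117 CPM in wild type (log2 fold change -0.23, SE 0.0658, edgeR adjusted p = 0.0244), a mean of 85.1% of wild type, and its groups did not overlap.

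Of the 8 calls at 96 h, 5 ended without 1 or another library of that time. The 8 calls became 4 without wild-type replicate 1 or 2, 5 without knockdown replicate 1, 2 or 3 of 96 h, and 13 without knockdown replicate 3 of 48 h. INSIG1 did not pass without knockdown replicate 1, 2 or 3 (edgeR adjusted p = 0.0606, 0.075 and 0.0922) or wild-type replicate 1 or 2 (0.0696 and 0.111) of 96 h. SQLE was lost without knockdown replicate 2 or 3 (0.0799 and 0.187) or wild-type replicate 1 or 2 (0.084 and 0.148) and with replicate number as a block (0.0574), and IDI1 without knockdown replicate 2 or 3 (0.0573 and 0.246) or wild-type replicate 2 (0.227). EBP was lost without knockdown replicate 1 (0.11) or wild-type replicate 1 or 3 (0.0879 and 0.0614), and FDPS without knockdown replicate 1 or 3 (0.0869 and 0.11) or any wild-type replicate (0.0919, 0.0549 and 0.0577) of 96 h. With no low-count filter IDI1 (0.0504) and FDPS (0.0837) were lost. TM7SF2, SREBF1 and ACAT2 passed without each library in turn.

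Among related genes at 96 h, 3 of 7 other sterol synthesis genes were lower, TMEM97 at -0.47 and LBR, the lamin B receptor, at -0.46. Over all tested genes 5.35% were higher and 5.15% lower at that time. Of 12 uptake and transport genes STARD3 was higher (0.28) and GRAMD1B lower (-0.47), and of 10 SREBP processing genes 0 passed by edgeR or DESeq2 and 1 had an unadjusted p under 0.05. Other fatty acid and glycerolipid genes gave 3 higher, DGAT2 at 0.58, and 2 lower of 22. PDSS1 (-0.54) was the 1 of 10 isoprenoid genes that was lower, ABCG1 (0.64) the 1 of 11 export and LXR genes that was higher, and in fatty acid oxidation ACADVL was higher (0.36) and CPT1A lower (-0.42) of 11.

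TM7SF2 was higher in libraries labelled knockdown than in wild-type ones at every time. It encodes a C14 sterol reductase of the endoplasmic reticulum (ENSG00000149809, chr11:65111845-65116384, plus strand), an activity that LBR has too. It had 76.3 and 84.4 CPM in libraries labelled knockdown at 24 h and 48.8 and 43.6 CPM in wild type (log2 fold change 0.80, SE 0.0969, edgeR adjusted p = 1.26e-05). At 48 h it had 30.4, 34.3 and 30.1 CPM in knockdown libraries and 19.2, 16.4 and 17.3 CPM in wild type (log2 fold change 0.84, SE 0.0822, edgeR adjusted p = 2.19e-07). At 96 h it had 79.7, 86.4 and 81.1 CPM in knockdown libraries and 48.1, 47.0 and 46.1 CPM in wild type (log2 fold change 0.81, SE 0.0782, edgeR adjusted p = 9.51e-07).

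The knockdown and wild-type values of TM7SF2 were apart at each time, by 1.74-fold, 1.79-fold and 1.75-fold, and the difference between times did not pass (edgeR adjusted p = 0.97). The call held without each library in turn and under each scaling. Mean NORAD at 24 h was 209 CPM in libraries labelled knockdown and 190 CPM in wild type. The NORAD means were 21.5 and 158 CPM at 48 h, and 72.9 and 183 CPM at 96 h. Whether TM7SF2 followed the NORAD level was not tested. TM7SF2-201, a protein-coding transcript of 1722 bases in 10 exons, held 71.1% of the gene's counts on average, and had 61.7, 64.2 and 60.7 CPM in knockdown libraries at 96 h, against 32.7, 34.4 and 33.0 CPM in wild type. TM7SF2 overlaps VPS51 on the same strand, and VPS51, a vesicle tethering gene, was at -0.25, -0.12 and -0.13 at 24 h, 48 h and 96 h.

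**Figure D2:**
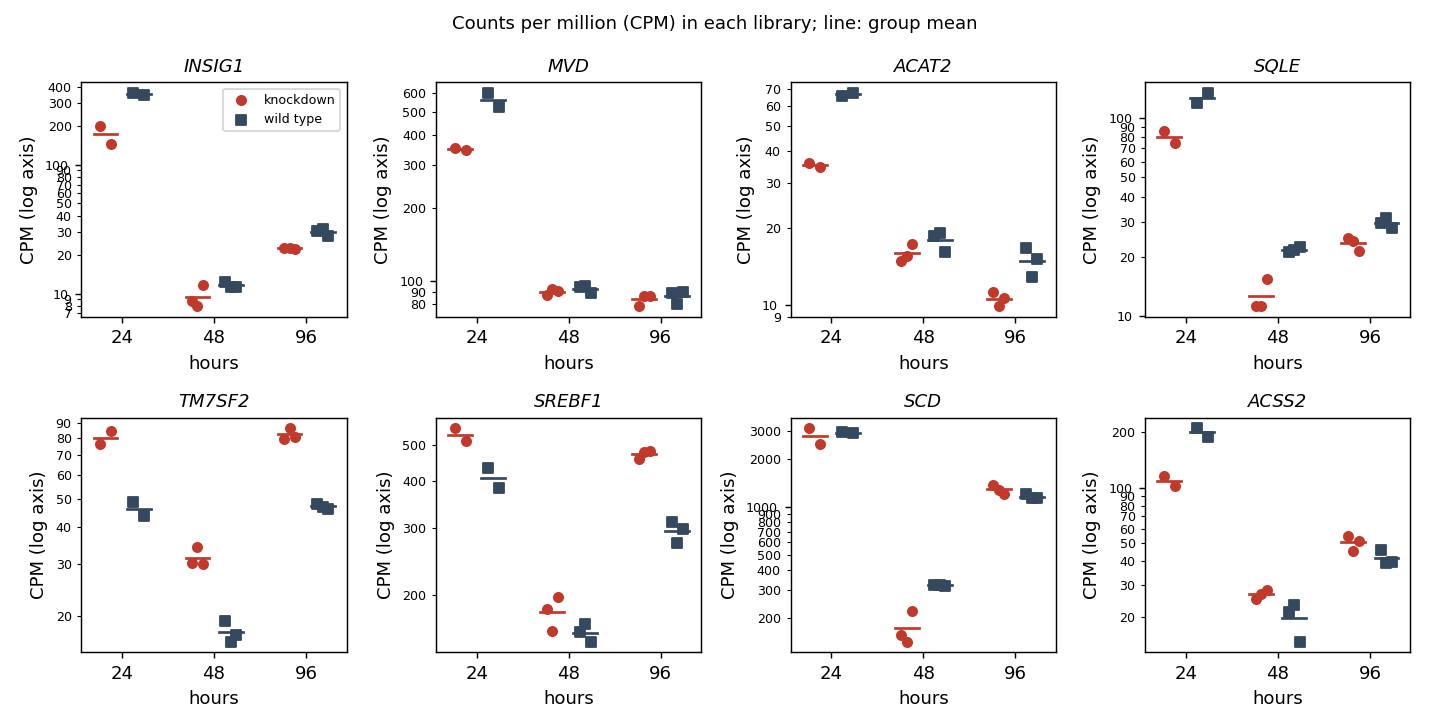
CPM (y axis, log scale) of 8 genes in each library at 24 h, 48 h and 96 h (x axis); circles are knockdown and squares wild-type libraries, and lines mark group means. TM7SF2 lies higher and SQLE lower in knockdown at all 3 times, INSIG1 and ACAT2 lie lower in knockdown at 24 h and 96 h, MVD at 24 h and SCD at 48 h.

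The knockdown effect is here the difference of libraries labelled knockdown from wild type. Whether it differed between times was tested in the same fit by an F test over the 3 differences. At 24 h NORAD was not lower in libraries labelled knockdown. A change from 24 h therefore need not be a change in the response to depletion. The F test passed for 15 of the 31 genes, against 9.44% of all tested genes. ACSS2 had the lowest p-value (edgeR adjusted p = 0.0011). Against the values at 24 h given above, it had 25.0, 26.7 and 27.98 CPM in knockdown libraries and 21.2, 23.3 and 14.8 CPM in wild type at 48 h (log2 fold change 0.43, SE 0.13, edgeR adjusted p = 0.0187), and 55.0, 45.4 and 51.4 CPM in knockdown libraries and 46.2, 39.1 and 39.8 CPM in wild type at 96 h (log2 fold change 0.28, SE 0.124, edgeR adjusted p = 0.191). It was thus lower in libraries labelled knockdown at 24 h, higher in knockdown at 48 h with no overlap, and overlapping at 96 h.

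MVD was next (edgeR adjusted p = 0.00124). It had 87.1, 92.2 and 90.8 CPM in knockdown libraries and 93.7, 94.9 and 88.4 CPM in wild type at 48 h, and 78.3, 85.9 and 86.5 CPM in knockdown libraries and 88.3, 79.9 and 89.8 CPM in wild type at 96 h. The groups overlapped at both late times, unlike at 24 h. SCD (edgeR adjusted p = 0.00227) had 3098 and 2473 CPM in libraries labelled knockdown and 2930.4 and 2895 CPM in wild type at 24 h, and 1379, 1275 and 1205 CPM in knockdown libraries and 1211, 1135 and 1129 CPM in wild type at 96 h, with overlap at both, while at 48 h it was lower with no overlap.

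ELOVL6 (edgeR adjusted p = 0.00593) had 81.1 and 78.5 CPM in libraries labelled knockdown and 81.4 and 83.5 CPM in wild type at 24 h, and 70.6, 64.2 and 59.1 CPM in knockdown libraries and 54.8, 57.4 and 54.5 CPM in wild type at 96 h (log2 fold change 0.22, SE 0.0735, edgeR adjusted p = 0.0642). ACSS2, MVD, SCD and ELOVL6 passed the test between times under each of the 23 other settings tried. In the contrast of the mean late effect minus the 24 h effect, 7 members passed, all positive, where 0.812% of all tested genes passed, 0.55% with a positive and 0.262% with a negative value. They were MVK, MVD, IDI1, FDPS, MSMO1, ACAT2 and ACSS2. In these the value in libraries labelled knockdown, relative to wild type, was lower at 24 h than later. These 7 became 0 without knockdown replicate 2 of 24 h, 1 without wild-type replicate 1 of 24 h, between 2 and 4 without any other library of 24 h, any of 96 h or any wild-type library of 48 h, 11 without knockdown replicate 1 or 2 of 48 h and 12 without its replicate 3. They became 3 with replicate number as a block, under RLE or total-count scaling or with no low-count filter, and 11 by DESeq2. The count of 15 became 5 without knockdown replicate 2 of 24 h, 8 without wild-type replicate 1 of 24 h, 6 without wild-type replicate 2 of 48 h, 24 without knockdown replicate 3 of 48 h and at least 10 without any other single library.

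In wild-type cells nearly the whole set was lower at 48 h than at 24 h. Of the 31 genes 30 passed, 29 lower and SCAP higher, where 44.6% of all tested genes passed, 22.1% lower and 22.5% higher. FADS2 alone did not pass (log2 fold change -0.015, SE 0.129, edgeR adjusted p = 0.936). The times did not overlap for 29 lower members and 1 higher, where 33.3% and 33.1% of all tested genes were so placed. All 18 sterol synthesis genes were lower, with a median log2 fold change of -1.92 against -0.0047 over all tested genes, and their summed level was 895 to 909 CPM at 48 h and 3465 to 3609.7 CPM at 24 h. The 7 fatty acid genes that were lower ranged from -3.33 for ACSS2 to -0.45 for ELOVL6.

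INSIG1 had 12.2, 11.3 and 11.2 CPM in wild-type cells at 48 h, against 359 and 348 CPM at 24 h, which is 30.5-fold lower (log2 fold change -4.93, SE 0.137, edgeR adjusted p = 5.14e-15). HMGCS1 (ENSG00000112972, chr5:43289395-43313512, minus strand) had 35.3, 32.2 and 34.0 CPM at 48 h and 327 and 337 CPM at 24 h (log2 fold change -3.30, SE 0.118, edgeR adjusted p = 5.17e-14). MSMO1 (ENSG00000052802, chr4:165327623-165343160, plus strand) had 29.3, 27.2 and 28.8 CPM at 48 h and 241 and 238 CPM at 24 h (log2 fold change -3.08, SE 0.0979, edgeR adjusted p = 2.98e-15). In each of these genes all values at 48 h lay below all values at 24 h.

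MVD had 93.7, 94.9 and 88.4 CPM in wild-type cells at 48 h, against 599 and 525 CPM at 24 h (log2 fold change -2.61, SE 0.0801, edgeR adjusted p = 1.91e-15). These 4 genes are those whose promoters are printed above with TM7SF2, which was at -1.39. The smallest drops among the sterol genes were of EBP (-0.52) and PMVK (-0.32, edgeR adjusted p = 0.00484, and 0.0922 without wild-type replicate 1 of 24 h). Both transcription factor genes were lower, SREBF2 with 96.4, 100.3 and 94.2 CPM at 48 h and 440.0 and 431 CPM at 24 h, and SREBF1 with 159, 167 and 150.0 CPM at 48 h and 434 and 383 CPM at 24 h. SCAP was higher, with 93.8, 99.1 and 88.1 CPM at 48 h and 71.1 and 73.3 CPM at 24 h (log2 fold change 0.38, SE 0.084, edgeR adjusted p = 0.000962).

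At 96 h more of the set was higher than lower in wild-type cells, relative to 48 h. Of the 31 genes 22 passed, 17 higher and 5 lower, where 46.4% of all tested genes passed, 23.7% higher and 22.7% lower. The times did not overlap for 20 higher and 4 lower members, where 29.7% and 28.5% of all tested genes were so placed. This comparison shares the wild-type 48 h libraries with the one before. TM7SF2 had 48.1, 47.0 and 46.1 CPM at 96 h and 19.2, 16.4 and 17.3 CPM at 48 h (log2 fold change 1.42, SE 0.082, edgeR adjusted p = 2.51e-11). SREBF2 (ENSG00000198911, chr22:41833079-41907308, plus strand) had 306, 268 and 293 CPM at 96 h and 96.4, 100.3 and 94.2 CPM at 48 h (log2 fold change 1.58, SE 0.101, edgeR adjusted p = 1.17e-10), and both genes were apart between the times.

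SCD had 1211, 1135 and 1129 CPM in wild-type cells at 96 h, against 325, 324 and 321 CPM at 48 h (log2 fold change 1.84, SE 0.126, edgeR adjusted p = 1.62e-09). STARD4 (ENSG00000164211, chr5:111496033-111512590, minus strand) had 31.3, 34.8 and 27.2 CPM at 96 h and 11.7, 12.8 and 13.7 CPM at 48 h (log2 fold change 1.28, SE 0.107, edgeR adjusted p = 3.56e-09). INSIG1 was at 1.37 and ACSS2 at 1.08, while HMGCS1 and MSMO1 were at 0.42 and 0.45. PMVK, FDPS, NSDHL, EBP and ACAT2 were lower at 96 h still, from -0.86 for EBP to -0.26 for ACAT2, whose call ended without wild-type replicate 1 or 2 of 48 h (edgeR adjusted p = 0.0977 and 0.208), wild-type replicate 2 or 3 of 96 h (0.187 and 0.0571) or knockdown replicate 2 of 24 h (0.0718), or under total-count or upper-quartile scaling (0.119 and 0.13). Without wild-type replicate 2 of 96 h, IDI1 (0.30) and SC5D (0.34) did not pass (0.0615 and 0.0658).

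**Figure D3:**
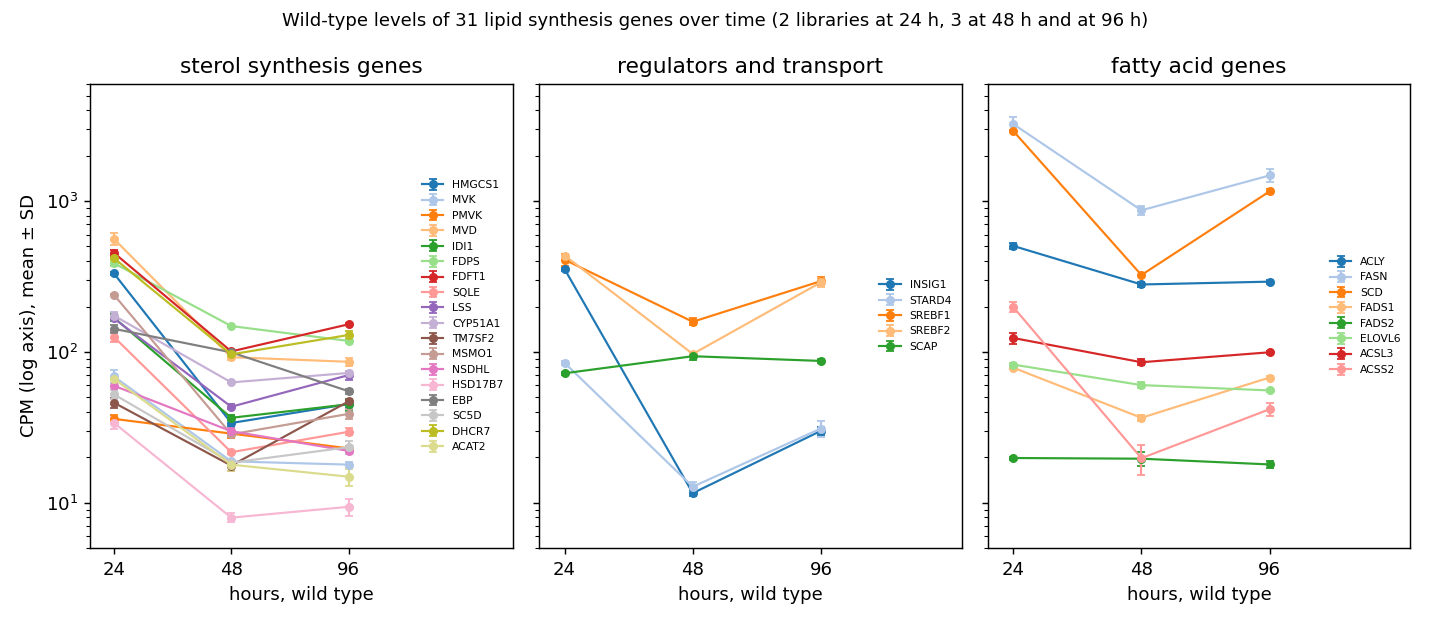
Mean CPM ± SD (y axis, log scale) of each of the 31 genes in wild-type cells at 24 h, 48 h and 96 h (x axis), with sterol synthesis genes, regulators and transport genes, and fatty acid genes in separate panels. Most lines drop between 24 h and 48 h, INSIG1 by 30.5-fold, and those of SREBF2, SCD, STARD4 and TM7SF2 turn up again by 96 h.

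Of related genes in wild type at 48 h against 24 h, other sterol synthesis genes gave 1 higher and 3 lower of 7 (ERG28 -1.10), uptake and transport genes 1 higher and 6 lower of 12 (NPC1, which exports cholesterol from lysosomes, -1.44), and SREBP processing genes 5 higher and 1 lower of 10, the lower one being INSIG2 (-1.99). Other fatty acid and glycerolipid genes gave 7 higher and 10 lower of 22, with LPIN1, a phosphatidate phosphatase gene, at -2.66, and PNPLA3, a lipid droplet gene, at -2.29. Isoprenoid branches gave 5 higher and 1 lower of 10, export and LXR genes 4 higher and 3 lower of 11, and fatty acid oxidation 1 higher and 3 lower of 11. Over all tested genes 22.5% were higher and 22.1% lower, and some of these counts lay near those shares. Mitochondrially encoded genes held between 10.4% and 11.1% of counts in wild type at 48 h and 4.89% and 5.05% at 24 h, and their part in these differences was not tested. Time and anything that the libraries of a time shared in handling cannot be told apart.

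At 96 h against 48 h, the sterol exporter genes ABCA1 and ABCG1 were higher (3.36 and 1.75), among 3 higher and 2 lower of 11 export and LXR genes. LPIN1 (0.92) and PNPLA3 (1.09) were among 10 higher and 3 lower of 22 other fatty acid and glycerolipid genes. Other sterol synthesis genes gave 2 higher and 2 lower of 7 (TMEM97 -1.18), uptake and transport genes 5 and 1 of 12, SREBP processing genes 1 and 1 of 10, and isoprenoid branches 1 and 6 of 10 (PDSS1 -1.21). Fatty acid oxidation genes were higher in 4 of 11 cases and lower in 0. Over all tested genes 23.7% were higher and 22.7% lower, and some of these counts, such as those of export and LXR genes, lay near those shares.

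Transcript usage, the share of a gene's counts that each transcript takes, was compared between knockdown and wild type over 48 h and 96 h. SREBF1 (edgeR adjusted p = 1.22e-07, 18 transcripts) and ACLY (edgeR adjusted p = 0.00196, 9 transcripts) passed among the members, where 3.44% of 12784 tested genes did. All members were tested except PMVK and SCD, with 1 transcript each. Since the ACLY call rested on 1 library, as given below, the count of members is near that share. SREBF1-201 is a protein-coding transcript of 4178 bases in 19 exons (chr17:17812073-17837002, minus strand) and SREBF1-202 one of 4253 bases in 20 exons (chr17:17812073-17836987). SREBF1-202 held 5.38, 5.81 and 13.2% of the gene's counts in knockdown libraries at 48 h and 0.765, 2.29 and 5.18% in wild type, and 23.8, 19.97 and 12.95% in knockdown libraries and 10.7, 4.84 and 11.3% in wild type at 96 h. All knockdown shares of SREBF1-202 were above the wild-type shares of their time, and its usage log2 ratio was 0.93 (transcript-level edgeR adjusted p = 3.92e-08).

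At 24 h, which that test did not use, SREBF1-202 held 31.2 and 29.9% in libraries labelled knockdown, against 26.5 and 26.8% in wild-type ones. SREBF1-201 held 45.4, 34.0 and 51.8% in knockdown libraries at 48 h and 66.4, 63.0 and 58.3% in wild type, and 40.6, 43.1 and 45.4% in knockdown libraries and 56.6, 59.9 and 51.1% in wild type at 96 h, with all knockdown shares below those of wild type. Its own usage log2 ratio of -0.30 did not pass (transcript-level edgeR adjusted p = 0.369). At 24 h SREBF1-201 held 21.6 and 21.5% in libraries labelled knockdown, against 26.6 and 28.4% in wild-type ones. The division of reads between 2 transcripts that share most exons is the estimate of a model. Other transcripts of SREBF1, whose shares are not given here, held the rest of its counts. A smaller share of SREBF1-201 is therefore not matched by an equal gain of SREBF1-202 in each library. SREBF1 passed in all 14 other settings tried, with adjusted p-values up to 0.016.

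**Figure D4:**
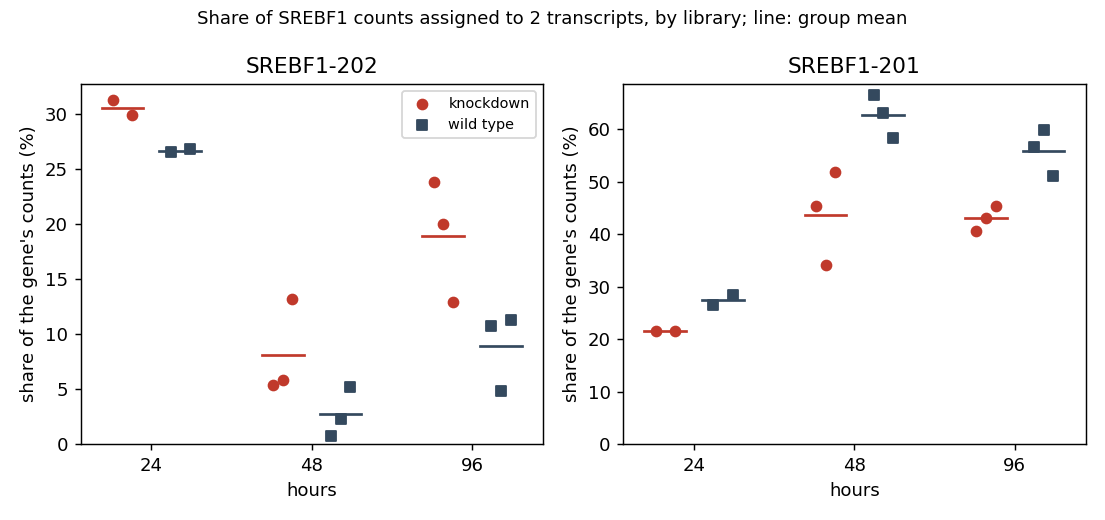
Share of SREBF1 counts in percent (y axis, from 0) assigned to transcripts SREBF1-202 and SREBF1-201 in each library at 24 h, 48 h and 96 h (x axis); circles are knockdown and squares wild-type libraries, and lines mark group means. SREBF1-202 takes a larger share and SREBF1-201 a smaller one in knockdown than in wild type at each time.

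The ACLY call rested on 1 library. Its transcript ACLY-207, of 4309 bases in 29 exons, had 0.0978, 0.15 and 0 CPM in knockdown libraries at 96 h and 0, 17.3 and 0.0961 CPM in wild type, so that wild-type replicate 2 alone held it. At 48 h ACLY-207 held 36.3, 28.6 and 22.6% of the gene's counts in knockdown libraries and 16.9, 20.01 and 26.4% in wild type, with overlap. Leaving out wild-type replicate 2 of 96 h ended the ACLY call (edgeR adjusted p = 1), and ACLY also missed the threshold among transcripts with at least 10% of their gene (0.118) or with replicate number as a block (0.079).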

How the data were processed

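Polyadenylated RNA of 16 HCT116 libraries was sequenced strand-specifically, per the labels. The deposited values are estimated counts per transcript that the authors made with kallisto, and hg19 and DESeq2 are also named in the submitters' processing notes. The sources used here do not give the index, the settings or the use of strand. Transcript names were matched to GENCODE 29 (GRCh38), which gave 156584 of 166096 transcripts, and the 9512 others held between 2.75% and 3.40% of counts. The 18 deposited counts with at least 7 digits all have a last digit of 0, which shows rounding of the largest ones. Counts were summed per gene and rounded to whole numbers.

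Gene tests used edgeR 4.0.16 under R 4.3.3 (TMM scaling, quasi-likelihood fit over all 16 libraries, 10 residual degrees of freedom, 19836 genes after filterByExpr, Benjamini-Hochberg adjustment, threshold 0.05). Transcript usage was tested with diffSpliceDGE on 12784 genes. Coordinates of genes and transcripts are those of GENCODE 29. Alternatives were scaling by RLE, by upper quartile, by total count or with a trend in abundance, no low-count filter, DESeq2 1.42.0, only the libraries of a time, replicate number as a block, and leaving out each library.

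Members and lists were chosen with earlier results of these data known. Named genes are the 6 called members with the lowest p-values in each knockdown comparison, the 4 lowest in the other comparisons, the SREBP genes with SCAP and INSIG1, and up to 3 called genes of each related list. Some genes given by this rule are left out here.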

Additional observations from a re-analysis of the deposited data

Results flagged for a closer look

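For 15 genes the knockdown effect differed between 24 h, 48 h and 96 h in the F test of that difference by edgeR, which 9.44% of all tested genes passed. In the mevalonate part of the pathway the adjusted p-values were 0.016 for MVK, 0.00124 for MVD, 0.019 for IDI1, 0.0225 for FDPS and 0.00903 for ACAT2. In the later sterol steps edgeR gave adjusted p-values of 0.0338 for FDFT1, 0.00702 for MSMO1, 0.0223 for NSDHL, 0.028 for EBP and 0.0289 for DHCR7. Among the regulators edgeR gave adjusted p-values of 0.026 for INSIG1 and 0.0213 for SREBF1, and among the fatty acid genes 0.00227 for SCD, 0.00593 for ELOVL6 and 0.0011 for ACSS2. At 24 h, 48 h and 96 h the log2 fold changes of knockdown over wild type were -0.53, 0.10 and -0.091 for MVK, -0.73, -0.13 and -0.089 for MSMO1, and -0.72, -0.25 and -0.053 for DHCR7. Over 23 other settings the call was lost in 15 for FDFT1, 10 for DHCR7, 8 each for NSDHL and EBP, 7 for SREBF1, 6 each for FDPS and INSIG1, 4 for MVK, 3 for IDI1, 1 each for MSMO1 and ACAT2 and 0 for MVD, SCD, ELOVL6 and ACSS2. NORAD was not lower at 24 h in the libraries labelled knockdown.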

How the results depend on the processing

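Each member was followed in the knockdown and wild-type comparisons in which it was called, and INSIG1, SREBF1, SREBF2 and SCAP also in the knockdown comparisons in which they were not. Calls gained by other members are outside this tally and enter only the counts of members. Of the tallied values under other settings, 2286 kept their direction and side of the threshold, 92 lost a call, 9 gained one and 9 changed sign. The count at 96 h was 8, and 13 when fitted on the libraries of 96 h alone, and the count of genes whose effect differed between times was 15, and 9 with no low-count filter. Leaving out each library in turn gave 17 to 22 members called at 24 h, 10 to 18 at 48 h, 4 to 13 at 96 h, 5 to 24 for the difference between times, 29 to 30 for wild type at 48 h over 24 h, 19 to 24 for 96 h over 48 h, and 1 to 3 for transcript usage. Transcript usage gave 1 member among transcripts with at least 10% of their gene. With the replicate number as a block, 21, 13 and 7 members were called at 24 h, 48 h and 96 h, 14 for the difference between times, 3 for the mean late effect minus the 24 h effect (7 without the block), 30 and 22 in the wild-type comparisons and 1 for transcript usage. The deviations of same-numbered knockdown and wild-type libraries from their group means correlated between -0.263 and 0.062. With 2 or 3 libraries a group, this cannot tell whether libraries of the same number were grown or prepared together. SREBF2 changed sign at 24 h, to 0.13, 0.039 and 0.14 when scaled by total count, by upper quartile or with a trend in abundance, and lay between -0.18 and 0.070 without each library in turn, with the sign change without knockdown replicate 2 of 24 h. SCAP changed sign too, to 0.12, 0.024 and 0.059 under the 3 scalings. At 48 h SREBF2 changed sign, to 0.010 and 0.073 under total-count and abundance-dependent scaling. The cause was not tested for any of these. Total-count and upper-quartile scaling moved the median of all genes by 0.21 and 0.12 at 24 h and by 0.14 and 0.12 at 48 h, and the members' median was then -0.32 and -0.41 at 24 h and -0.033 and -0.054 at 48 h. Relative to all genes the members' median stayed lower under these 2 scalings. With a trend in abundance it was -0.44 at 24 h, against -0.0025 over all genes. At 48 h it was then -0.016 against 0.031, a smaller difference than the -0.17 and 0.063 of the main fit. With 2 libraries a group at 24 h, each of them carries much of the spread.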
